A study of Rattus norvegicus with 10 samples.

Results

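Elastin and the lysyl oxidases were followed in abdominal aorta from 2 inbred strains of rat, BN (Brown Norway) and LOU, with Affymetrix arrays, whose short probes sit mostly near the 3′ ends of mRNAs. The genes were taken by symbol: Eln, Lox, Loxl1, Loxl2, Loxl3 and Loxl4. Of these 6, 3 were named on the array (Eln, Lox and Loxl1), among 10411 named genes in all, and they were read by 4 of 15866 probe sets. Loxl2, Loxl3 and Loxl4 were not analysed here. Each strain had 5 arrays of total RNA, all rats were untreated, and every array carried an age of 5 weeks. The growth notes allow ages up to 18 weeks, the extraction notes also speak of thoracic aorta, and no sex is given. Whether every array stands for a separate rat is not stated, so the p-values describe the scatter of these 10 arrays, which may be technical, and their number limits the precision.

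Elastin is the protein of the elastic lamellae that let an artery recoil. Smooth muscle cells secrete it as soluble tropoelastin, which is laid on microfibrils of fibrillin and then made insoluble when its lysines are cross-linked. Lysyl oxidases are copper enzymes that oxidise these lysines in elastin and collagen. Lox is the founding member, Loxl1 is tied to elastic fibres through fibulin 5, and Loxl2, Loxl3 and Loxl4 form a branch with scavenger receptor domains. Ruptures of the internal elastic lamina and a low aortic elastin content are known traits of BN, and the comparison with LOU addresses the genetic basis of such arterial traits.

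Between 69.7% and 81.9% of probe sets on an array lay above background. Background (21.2 to 49.2 signal units) was the level below which 95% of the 45 bacterial control probe sets fell. All 4 probe sets of the elastin and lysyl oxidase genes were above it on all 10 arrays, at least 18.0-fold. All 9 smooth muscle markers were above it on all 10 arrays as well. The 3′ to 5′ signal ratio of the beta-actin control probes spanned 3.47 to 5.39 in BN and 3.85 to 4.59 in LOU, so this measure of RNA integrity overlapped. The highest of these ratios was on BN array 3. For the GAPDH control probes the ratio spanned 1.38 to 1.72 in BN and 1.42 to 2.01 in LOU. BN array 3 stood apart in nerve and Schwann cell markers and LOU array 1 in macrophage markers, and without these 2 arrays together, a setting added after the data had been seen, the differences below were 0.013 for Eln, −0.52 and −0.58 for the Lox probe sets and −0.34 for Loxl1, none past the test.

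Eln expression did not pass the test between the strains. The signal (probe set 1388111_at) was 10767.6, 8836, 8950.3, 10035.6 and 10923.7 on BN arrays 1 to 5. On LOU arrays 1 to 5 it was 10625.3, 9284.6, 9947.1, 10782.9 and 10108.8. The LOU range lay inside the BN range, with BN holding both the lowest and the highest value. The means were 9903 ± 981 in BN and 10149.7 ± 595 in LOU (SD, n = 5 each). The log2 difference, BN minus LOU, was −0.039 (SE 0.11), with a limma adjusted p of 0.910 over all probe sets and an exact permutation p of 0.595 (two-sided). Its 95% interval corresponded to a BN over LOU ratio of 0.819 to 1.16, and after median centring the difference was 0.012, of the opposite sign.

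Eln was also among the steadier transcripts. Its highest signal on the 10 arrays was 1.24 times its lowest, and its within-strain SD of 0.12 (log2) was smaller than that of all but 2.22% of probe sets. Bright probe sets vary less in general. Among the 1587 brightest probe sets, whose median SD was 0.22 against 0.34 over all, that of Eln still lay at the 8.32nd percentile. The table holds no saturation flags, and the highest signal of any probe set was 22219.9.

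Lox, which oxidises lysines in both elastin and fibrillar collagen, was read by 2 probe sets annotated to the same sequence record. Probe set 1 (1368171_at) gave 2647.4, 1929.9, 2751.8, 2915.3 and 4790.7 on BN arrays 1 to 5, against 2654.4, 3150, 5734, 3946.6 and 4266.1 on LOU arrays 1 to 5. BN array 5 lay above all LOU arrays but array 3, so the strains overlapped widely. The means of 3007 ± 1066 in BN and 3950 ± 1183 in LOU (SD, n = 5 each) gave a log2 difference of −0.41 (SE 0.27, limma adjusted p = 0.559). The 95% interval corresponded to a BN over LOU ratio of 0.499 to 1.14.

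Probe set 2 of Lox (1368172_a_at, a type whose probes match alternative transcripts of a gene) separated the strains further. It gave 1025.7, 1024.6, 876.4, 1302 and 1347.2 on BN arrays 1 to 5. LOU arrays 1 to 5 gave 1064.9, 1357.9, 1867.7, 1999.7 and 1804.9. All LOU arrays but array 1 lay above every BN array, and LOU array 1 lay within the BN range. The means were 1115 ± 201 in BN and 1619 ± 393 in LOU, a log2 difference of −0.52 (SE 0.20, 95% interval −0.97 to −0.06, n = 5 each, limma). The unadjusted limma p was 0.0293, the exact permutation p 0.0317 (two-sided) and the limma adjusted p over all probe sets 0.309. Over the whole array, 13.3% of probe sets had an unadjusted limma p under 0.05. Without LOU array 1 the difference was −0.66 (limma adjusted p = 0.157). The 2 Lox probe sets did not differ from each other in strain difference beyond their spread, by 0.11 (95% interval −0.34 to 0.56, exact permutation p = 0.587).

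Loxl1, the family member whose loss in mice leaves elastic fibres poorly renewed, was also lower on average in BN without passing the test. Its probe set (1388902_at) gave 885.5, 976.7, 1036.7, 1207.4 and 1286.1 on BN arrays 1 to 5, against 1059.8, 1149.4, 1406.2, 1745.9 and 1233.3 on LOU arrays 1 to 5. LOU arrays 3 and 4 lay above every BN array and BN arrays 1, 2 and 3 below every LOU array, with the rest interleaved. The means of 1078 ± 165 in BN and 1319 ± 271 in LOU (SD, n = 5 each) gave a log2 difference of −0.28 (SE 0.17, 95% interval −0.66 to 0.09, limma adjusted p = 0.517). In bulk tissue, fewer cells of a type and less RNA per cell cannot be told apart.

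Loxl1 was the only gene of the 3 with a RefSeq promoter in the table used here. It is shown because its signal tended to vary with that of Lox, in relations described below that did not pass after adjustment. The 250 bases before its start, at chr8:67612225-67612474 on the minus strand of GRCr8, a genome assembly of the BN strain itself, read 5′ to 3′:
Loxl1: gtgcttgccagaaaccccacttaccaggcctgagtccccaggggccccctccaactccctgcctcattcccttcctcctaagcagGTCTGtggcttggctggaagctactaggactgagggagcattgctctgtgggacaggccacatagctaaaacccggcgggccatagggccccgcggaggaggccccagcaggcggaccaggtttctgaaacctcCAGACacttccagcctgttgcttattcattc
Capitals mark the 2 matches to CAGAC on either strand, letters found in elements bound by the Smad proteins that carry TGF-beta signals. CAGAC occurs in 42.9% of the 33469 promoters of the table over the same 250 bases. The window held no TATAAA (12.9% of promoters), no GGGCGG (30.5%) and no CCAAT (34%), each searched on both strands, and its GC content was 60.4%. The motifs were chosen with the window in view, and the sequence of LOU is not used here.

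**Figure D1:**
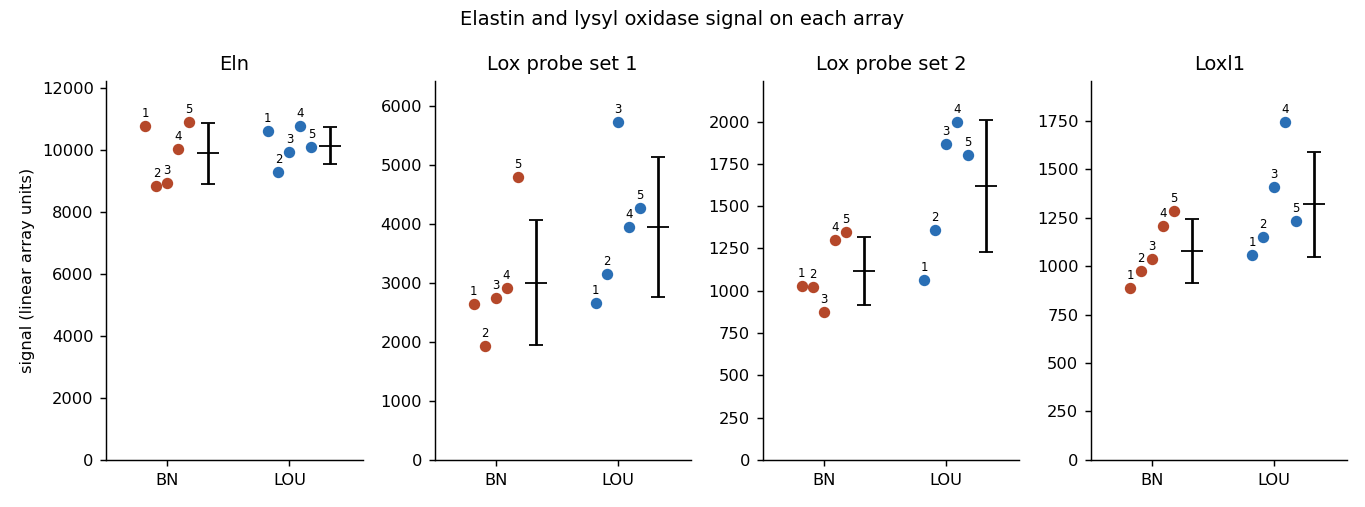
Signal in linear array units for Eln, the 2 Lox probe sets and Loxl1, with 1 point per array labelled by its number, BN left of LOU, and black bars for mean ± SD (n = 5). Eln spans 8836 to 10923.7 in BN and 9284.6 to 10782.9 in LOU, while 4 of the 5 LOU arrays lie above every BN array in Lox probe set 2.

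All 4 probe sets had a negative difference, as did 53.5% of all probe sets, and 0 of 4 passed limma's test (1 had an unadjusted p under 0.05). Over the whole array 0.788% of probe sets passed, 0.246% with BN higher and 0.542% with BN lower. None of the 4 separated the strains without overlap, against 4.18% of all probe sets. The direction of Lox and Loxl1 was the same in each of the 20 alternatives run, from −0.59 to −0.12 for Lox probe set 1, −0.66 to −0.36 for Lox probe set 2 and −0.35 to −0.11 for Loxl1. The values nearest 0 came with brown adipocyte markers as a covariate, a shift whose direction was fixed in advance, as described below.

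Whether enzyme and substrate differed unequally between the strains was asked within each array, by subtracting the log2 signal of Eln. For Lox (probe set 1) minus Eln, BN arrays averaged −1.78 ± 0.38 and LOU arrays −1.41 ± 0.44 (SD, n = 5 each). The BN minus LOU difference was −0.37 (95% interval −0.97 to 0.23, exact permutation p = 0.206, adjusted over 2 pairs 0.206). For Loxl1 minus Eln the averages were −3.21 ± 0.23 in BN and −2.96 ± 0.26 in LOU. That difference was −0.24 (95% interval −0.60 to 0.11, exact permutation p = 0.175, adjusted 0.206). Without LOU array 1 it became −0.33 with an adjusted exact permutation p of 0.0317, and with BN array 3 left out too it was −0.36 (adjusted 0.0571). Neither pair passed with all arrays. Among 3 pairs added after the data had been seen, Lox probe set 2 minus Eln differed by −0.48 (95% interval −0.92 to −0.03, exact permutation p = 0.0476, adjusted over 3 pairs 0.143). Loxl1 minus Lox differed by 0.13 (95% interval −0.38 to 0.63, exact permutation p = 0.571).

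**Figure D2:**
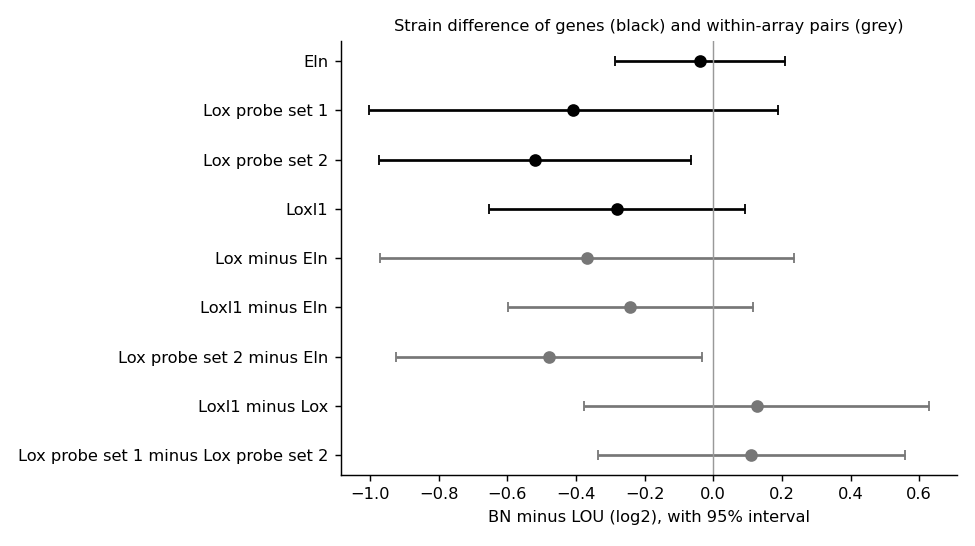
Log2 difference, BN minus LOU, on the horizontal axis with 95% intervals, for the 4 probe sets (black, from limma) and for pairs of probe sets subtracted within an array (grey, from the spread of 5 and 5 arrays). Eln lies at −0.039 with the narrowest interval of the 4, and the 3 lysyl oxidase probe sets lie between −0.52 and −0.28.

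The lysyl oxidases varied from array to array within a strain, and partly on the same arrays. As deviations from the strain mean, Lox probe set 1 was lowest on BN array 2 (−0.57) and LOU array 1 (−0.52) and highest on BN array 5 (0.74) and LOU array 3 (0.59). Loxl1 was low on LOU array 1 (−0.29) and BN array 1 (−0.27) and high on BN array 5 (0.27), and its highest deviation was on LOU array 4 (0.43). Over the 10 arrays the 2 Lox probe sets had a Pearson r of 0.73 (permutation p = 0.0205) and a Spearman correlation of 0.78 (permutation p = 0.0167). Adjusted over 6 relations these were 0.0615 and 0.0502. Without BN array 5 and LOU array 3, the 2 arrays farthest out, r was 0.70.

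Lox and Loxl1 went the same way. Loxl1 followed Lox probe set 2 with r = 0.82 (permutation p = 0.0115, adjusted 0.0615) and a Spearman correlation of 0.83 (permutation p = 0.0102, adjusted 0.0502), and r was 0.88 without BN array 3 and LOU array 1. With Lox probe set 1 the values were r = 0.65 (permutation p = 0.059, adjusted 0.118) and 0.75 by rank (permutation p = 0.0255, adjusted 0.051), and r was 0.57 without BN array 5 and LOU array 3. Eln had a lower r with the enzymes, a difference that was not tested. Its r was 0.43 with Lox probe set 1, 0.36 with Lox probe set 2 and 0.31 with Loxl1 (permutation p = 0.276, 0.274 and 0.377, adjusted 0.332, 0.332 and 0.377). By rank these were 0.43, 0.49 and 0.22 (permutation p = 0.266, 0.14 and 0.533, adjusted 0.319, 0.21 and 0.533). Without BN arrays 2 and 3 the r values of Eln were 0.22, 0.16 and 0.24. Within BN they were 0.71, 0.65 and 0.28, and within LOU −0.09, 0.09 and 0.39. None of the 6 relations passed after adjustment, by either measure.

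**Figure D3:**
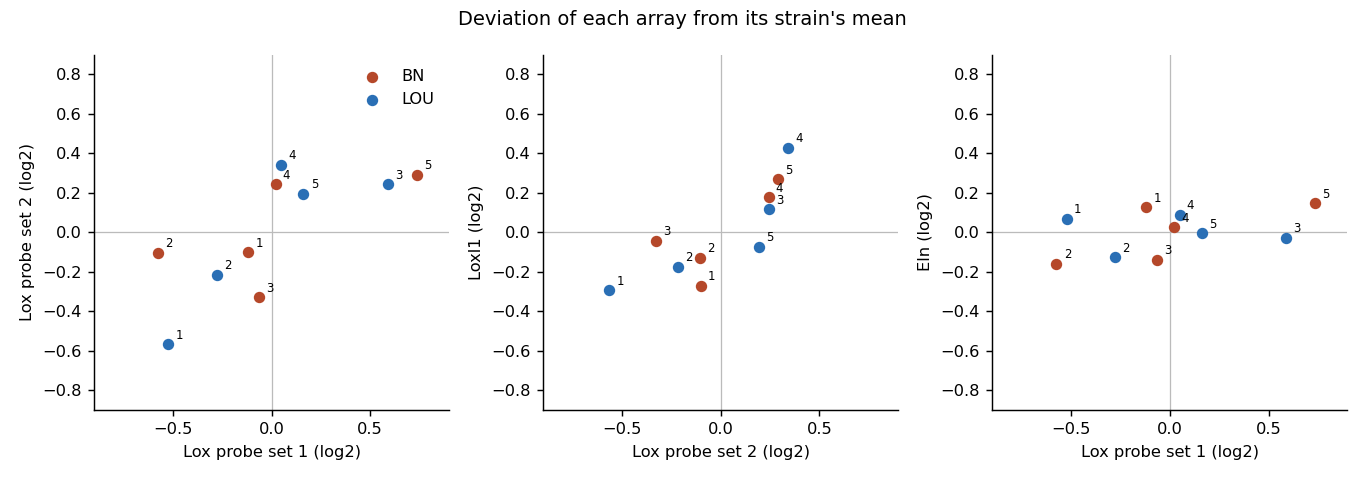
Deviation of each array from its strain's mean (log2), 1 point per array labelled by number, for the 2 Lox probe sets (left, r = 0.73), Lox probe set 2 and Loxl1 (middle, r = 0.82), and Lox probe set 1 and Eln (right, r = 0.43). The Eln deviations stay between −0.16 and 0.15 while those of Lox probe set 1 run from −0.57 to 0.74.

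These array-to-array differences moved with markers of other cells in the samples. Each marker list was summarised as the mean of its genes' log2 signals centred over the 10 arrays, and 8 lists were set against the 4 probe sets as within-strain deviations, which gave 32 relations chosen after the data had been seen. After adjustment 4 passed by Pearson r and 5 by rank, none of them with Eln. Adipocyte markers ran opposite to Lox probe set 1, with r = −0.88 (permutation p = 0.0019, adjusted 0.0235) and a Spearman correlation of −0.92 (permutation p = 0.00121, adjusted 0.0387). The r was −0.88 within BN and −0.88 within LOU, and −0.74 without BN array 5 and LOU array 3. Lox probe set 2 did not pass with this list, at r = −0.64 (permutation p = 0.0594, adjusted 0.185). By rank it gave −0.73 (permutation p = 0.0298, adjusted 0.119). Its r was −0.30 within BN, −0.93 within LOU and −0.50 without the same 2 arrays. BN array 5 had the lowest adipocyte mean of all arrays (−0.97) and LOU array 1 the highest (0.73), while BN array 2 was at 0.66 and LOU array 3 at −0.65.

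Against Loxl1 the adipocyte markers gave r = −0.79 (permutation p = 0.0143, adjusted 0.0785) and −0.84 by rank (permutation p = 0.0065, adjusted 0.0416), and r was −0.75 without BN array 5 and LOU array 3. Brown adipocyte markers, led by the uncoupling protein Ucp1, gave r = −0.87 with Loxl1 (permutation p = 0.0022, adjusted 0.0235) and −0.85 by rank (permutation p = 0.00403, adjusted 0.0416), and r was −0.76 without BN array 5 and LOU array 4. Neither Lox probe set passed with the brown list. Probe set 1 gave r = −0.81 (permutation p = 0.0147, adjusted 0.0785) and probe set 2 r = −0.63 (permutation p = 0.0673, adjusted 0.185). By rank these were −0.82 and −0.70 (permutation p = 0.0124 and 0.0376, adjusted 0.0663 and 0.134). Eln gave r = −0.26 against adipocyte markers (permutation p = 0.506, adjusted 0.718) and −0.24 by rank (permutation p = 0.555, adjusted 0.740). That r was −0.03 without BN array 5 and LOU array 3. Against brown adipocyte markers Eln gave r = −0.35 (permutation p = 0.38, adjusted 0.608), and 0.17 without BN array 5 and LOU array 4. Whether Eln differed from the enzymes in these relations was not tested. Of 9 adipocyte markers 6 were measured. Their summed signal was 1494 to 7099 in BN and 2416 to 9261 in LOU, and leptin (Lep) was above background on none. The 6 measured brown adipocyte markers of 7 summed to between 2071 and 19582 on BN arrays and between 1296 and 11285 on LOU arrays. Both sums overlapped between the strains. All 6 measured brown adipocyte markers had positive differences (median 0.91), the median over all genes being −0.018, with Cox8b at 2.58 (limma adjusted p = 0.284) and Ucp1 at 1.40 (limma adjusted p = 0.506), and none passed. Only 3 of the 6 were above background on all 10 arrays. Ppargc1a was above it on 2 BN and 0 LOU arrays, Dio2 on 3 and 2, and Cox8b on 5 and 4. The brown adipocyte mean was 0.53 ± 1.42 in BN and −0.53 ± 1.23 in LOU (SD, n = 5 each), while the adipocyte mean was 0.0084 ± 0.68 in BN and −0.0084 ± 0.60 in LOU.

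The strain fit was repeated with each of these means as a covariate, alternatives chosen after seeing the data. With the brown adipocyte mean, Lox probe set 1 differed by −0.12 (SE 0.19, limma adjusted p = 0.850), Lox probe set 2 by −0.36 (SE 0.19, limma adjusted p = 0.490), Loxl1 by −0.11 (SE 0.12, limma adjusted p = 0.780) and Eln by −0.0062 (SE 0.12, limma adjusted p = 0.988). Without this covariate the differences were −0.41 for Lox probe set 1, −0.52 for Lox probe set 2 and −0.28 for Loxl1. The brown adipocyte mean was higher on average in BN and ran opposite to these probe sets within strains. That fixed the direction of the shift in advance, so no conclusion is drawn from it. The adipocyte mean was nearly equal in the strains, so this covariate could change the errors but hardly the differences. With it Lox probe set 1 differed by −0.40 (SE 0.15, limma adjusted p = 0.241), Lox probe set 2 by −0.51 (SE 0.17, limma adjusted p = 0.186), Loxl1 by −0.28 (SE 0.13, limma adjusted p = 0.328) and Eln by −0.038 (SE 0.11, limma adjusted p = 0.896). None of the 4 passed with either covariate. The other marker lists were not used as covariates. The part of fat cells in the strain difference of the lysyl oxidases was not tested.

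Smooth muscle markers, from the cells that make elastin, ran with Lox probe set 2. The list gave r = 0.85 with Lox probe set 2 (permutation p = 0.00216, adjusted 0.0235) and 0.88 by rank (permutation p = 0.00323, adjusted 0.0416), and r was 0.84 without BN array 5 and LOU array 4. Lox probe set 1 gave r = 0.68 (permutation p = 0.0451, adjusted 0.16) and 0.77 by rank (permutation p = 0.0196, adjusted 0.0896). For Loxl1 the list had r = 0.72 (permutation p = 0.032, adjusted 0.128) and 0.61 by rank (permutation p = 0.085, adjusted 0.209). Without those 2 arrays r was 0.59 with Lox probe set 1 and 0.31 with Loxl1. With Eln it gave r = 0.61 (permutation p = 0.076, adjusted 0.185) and 0.64 by rank (permutation p = 0.0682, adjusted 0.199), falling to r = 0.33 without those 2 arrays, so that this relation rested on them. Nerve and Schwann cell markers gave r = −0.75 with Lox probe set 2 (permutation p = 0.00319, adjusted 0.0255) and −0.75 by rank (permutation p = 0.00632, adjusted 0.0416), and r was −0.47 without BN array 3 and LOU array 1, on which it rested. Lox probe set 1 and Loxl1 did not pass with this list, at r = −0.43 and −0.38 (permutation p = 0.249 and 0.28, adjusted 0.469 and 0.497). By rank these were −0.49 and −0.39 (permutation p = 0.162 and 0.239, adjusted 0.305 and 0.402). Without the same 2 arrays r was −0.51 and −0.32. Eln with the same list gave r = −0.55 (permutation p = 0.155, adjusted 0.31) and −0.72 by rank (permutation p = 0.0502, adjusted 0.161), and r was −0.88 without those 2 arrays. The 8 measured nerve and Schwann cell markers of 10 summed to between 2773 and 10922 in BN and between 2326 and 3362 in LOU, and all 8 had positive differences (median 0.87). Only 5 of the 8 were above background on every array. Sox10 was above it on 4 BN and 0 LOU arrays, Dbh on 3 and 3, and Prx on 5 and 4. The myelin gene Mbp passed with BN higher, at 475 ± 195 in BN and 141 ± 46.5 in LOU (SD, n = 5 each, log2 1.73, limma adjusted p = 0.0460), and it passed in 1 of 10 fits that each left out an array. Its second probe set gave 1.13 (limma adjusted p = 0.129).

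Markers of adventitial fibroblasts, which also express lysyl oxidases, had negative differences in 9 of 10 genes (median −0.69), beside 52.4% of all genes. Of the 10, 1 passed, beside 0.72% of all genes. The marker with a positive difference was Cxcl12, at 0.88 (limma adjusted p = 0.177), with other probe sets at −0.17 and 0.035. The 10 signals summed to between 11137 and 14899 in BN and between 16059 and 25764 in LOU, without overlap, whereas the mean of their log2 signals reached −0.038 in BN and went down to −0.049 in LOU, a slight overlap. The marker that passed was osteoglycin (Ogn), at 1785 ± 571 in BN and 4977 ± 792 in LOU (SD, n = 5 each, log2 −1.53, limma adjusted p = 0.0171). Ogn kept its call in 7 of 10 fits that each left out an array, not without LOU array 2, 3 or 4 (adjusted p = 0.0546, 0.0599 and 0.0517). The other 3 Ogn probe sets gave −1.59 (limma adjusted p = 0.0460), 0.20 (0.811) and −0.27 (0.795). Ogn did not pass with both BN array 3 and LOU array 1 left out (limma adjusted p = 0.0597). Smooth muscle sums overlapped, at 46915 to 68477 on BN arrays and 42169 to 58489 on LOU arrays. Of the 9 smooth muscle markers 8 had positive differences (median 0.22), the opposite direction to the lysyl oxidases, and none passed. Within strains the fibroblast list had r = 0.24 with Lox probe set 1, 0.08 with Lox probe set 2, −0.01 with Loxl1 and 0.20 with Eln (permutation p = 0.516, 0.858, 0.974 and 0.572, adjusted 0.718, 0.946, 0.974 and 0.763). By rank these were 0.02, 0.26, −0.02 and 0.28 (permutation p = 0.972, 0.517, 0.975 and 0.424, adjusted 1, 0.720, 1 and 0.617). Without BN array 1 and LOU array 2 the r values were 0.63, 0.42, 0.54 and 0.45. The part of the fibroblasts in the strain difference of the lysyl oxidases was not tested.

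**Figure D4:**
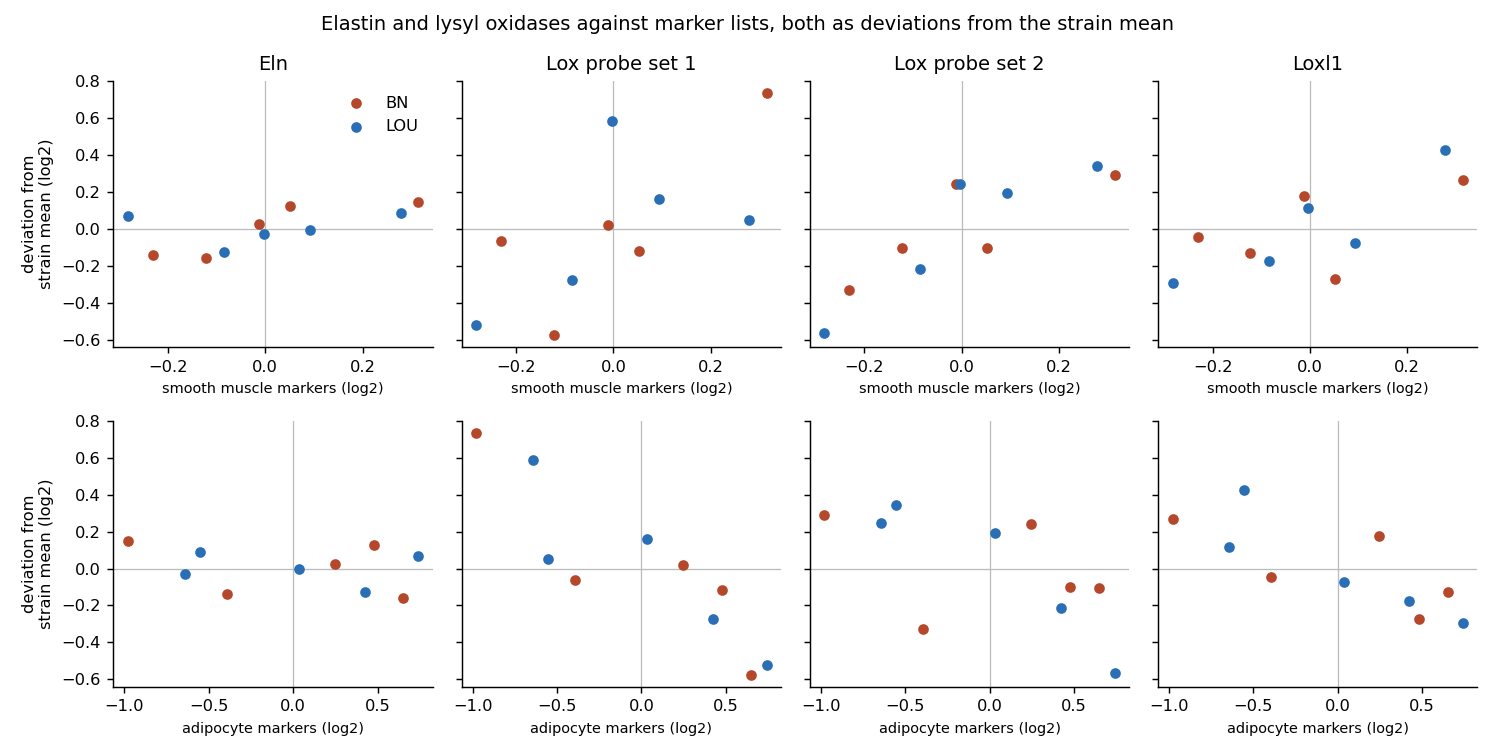
Deviation from the strain mean (log2, vertical) of Eln, the 2 Lox probe sets and Loxl1 against that of the smooth muscle list (top) and the adipocyte list (bottom), 1 point per array. Lox probe set 1 falls along the adipocyte axis (r = −0.88), while r was −0.26 for Eln, a difference that was not tested.

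The genes whose within-strain pattern was most like each of the 3 were sought among 7369 other genes above background on all 10 arrays, as a description over arrays that share their tissue makeup. For Eln they were the secretory carrier gene Scamp2 (r = 0.93), Rnf111 (0.92), a ubiquitin ligase that enhances TGF-beta signalling, Ldlrad3 (0.91), the zinc finger gene Sall2 (0.90) and the acyltransferase gene Agpat5 (0.89). For Lox (probe set 1) they were Fam98a (0.95), the translation initiation helicase Eif4a2 (0.95), Ift20 (0.95), Arfip2 (0.94) and attractin, Atrn (0.93). For Loxl1 they were the transcription elongation factor gene Supt5h (0.97), carboxypeptidase E (Cpe, 0.96), the acetyltransferase gene Kat2b (0.95), Reep4 (0.95) and the amino acid transporter gene Slc7a3 (0.95). None of these 15 genes passed the strain test. Loxl1 ranked only 971st of 7369 in likeness to Lox, and Lox ranked 1221st and Loxl1 1903rd in likeness to Eln, so many genes varied on these arrays as closely as the family did.

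Around these genes, 9 lists covered the steps from microfibril to cross-link and turnover. Of 89 listed genes 77 were measured, each read from its brightest probe set. In all, 1 passed with BN higher and 1 with BN lower, against a background of 0.72% of genes (0.24% higher and 0.48% lower). The measured genes had a median difference of −0.20, beside −0.018 over all 10411 genes, and 66.2% of the 77 were negative, beside 52.4% of all genes.

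Of 15 measured microfibril and assembly genes 13 had negative differences, with a median of −0.35, and 1 passed, with BN higher. That gene was Mfap3, a microfibril-associated protein, at 85.8 ± 15.8 in BN and 34.8 ± 12.6 in LOU (SD, n = 5 each, log2 1.36, limma adjusted p = 0.0472). It was above background on 3 of 5 LOU arrays, its second probe set gave −0.72 (adjusted p = 0.485), and of 10 fits that each left out an array it passed in 1, that without LOU array 2 (adjusted p 0.0279 to 0.124 over the 10). Ltbp1, a binding protein of latent TGF-beta, did not overlap between the strains, at 991 ± 178 in BN and 1327 ± 97.4 in LOU, and did not pass (log2 −0.44, limma adjusted p = 0.223). Fibulin 5 (Fbln5), which brings tropoelastin and Loxl1 together, differed by −0.35 (limma adjusted p = 0.409). Within strains the median r of its genes was 0.56 with Loxl1, 0.45 with Lox and 0.20 with Eln, where the medians over all genes were 0.04, 0.07 and 0.03, and the difference between these medians was not tested. Fbln5 and Fbn1, the gene of fibrillin 1, had r of 0.74 and 0.69 with Lox and 0.73 and 0.79 with Loxl1.

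Lox is secreted as a proenzyme that Bmp1 and related proteases cut, helped by fibronectin and periostin. Of 4 measured genes on that list none passed, with a median of −0.00104. Fibronectin (Fn1) was 5221 ± 481 in BN and 4461 ± 335 in LOU, without overlap (log2 0.23, limma adjusted p = 0.437), and Pcolce, an enhancer of procollagen cleavage, differed by −0.26 (limma adjusted p = 0.682). Copper reaches the enzyme through importers, chaperones and the pump Atp7a. That list leaned the other way, with 6 of 7 measured genes positive and a median of 0.24, and none passed. Cox17, the chaperone that feeds cytochrome oxidase in mitochondria rather than the secretory path, was 528 ± 80.3 in BN and 356 ± 85.9 in LOU (log2 0.59, limma adjusted p = 0.207), and had r = −0.91 with Loxl1 within strains. Atox1, the chaperone that hands copper to Atp7a, went the other way at 328 ± 85.2 in BN and 492 ± 92.3 in LOU (log2 −0.60, limma adjusted p = 0.230).

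Of 8 hydroxylases that prepare collagen lysines and prolines 4 had negative differences. The 1 that passed was P4ha2, a prolyl hydroxylase subunit, with BN lower. It averaged 332 ± 28.9 in BN and 626 ± 108 in LOU (SD, n = 5 each, log2 −0.90, limma adjusted p = 0.0175). It did not pass without BN array 2, LOU array 2 or LOU array 3 (adjusted p = 0.0537, 0.0566 and 0.0614), and its second probe set gave 0.055 (adjusted p = 0.928). P4ha1 differed by 0.34 (limma adjusted p = 0.337), and the list's median was −0.022. Of the 7 fibrillar collagens that Lox cross-links none passed (median −0.11). Col5a3 came nearest, at 369 ± 88.1 in BN and 162 ± 54.2 in LOU (log2 1.21, limma adjusted p = 0.0528), and Col5a1 differed by −0.23 (adjusted p = 0.539). The collagen genes had a median r of 0.52 with Eln, 0.36 with Lox and 0.20 with Loxl1.

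Genes of elastin turnover did not pass either. Of 10 measured proteases that can cut elastin 7 were negative (median −0.19), and Mmp7 and Cela1 were not above background on any array. The gelatinase gene Mmp9 was above background on no BN array and 1 LOU array, too dim for a fold (limma adjusted p = 0.0866), and Mmp2 differed by −0.35 (adjusted p = 0.356), with a second probe set at −0.00383. Of 8 measured inhibitors 5 were negative (median −0.19). Timp1 differed by −0.43 (limma adjusted p = 0.322) and Serpine2, a serpin that blocks serine proteases, by −0.21 (adjusted p = 0.595).

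The elastin receptor complex joins Neu1, Ctsa and a splice form of Glb1, and senses elastin fragments. Of 5 measured genes on that list 4 were negative (median −0.33) and none passed. Glb1 did not overlap between the strains, at 209 ± 26.1 in BN and 300 ± 35.2 in LOU (log2 −0.53, limma adjusted p = 0.118), and the integrin gene Itgb5 differed by −0.41 (adjusted p = 0.232). Of 13 measured TGF-beta genes and other regulators of Eln and Lox 10 were negative, with a median of −0.19, and none passed. Tgfb1, a growth factor that induces both, was 132 ± 20.1 in BN and 197 ± 8.79 in LOU without overlap (log2 −0.59, limma adjusted p = 0.0730). Its receptor gene Tgfbr1 differed by −0.60 (adjusted p = 0.165), with a second probe set at −0.12. This list had a median r of 0.61 with Lox, 0.44 with Loxl1 and 0.35 with Eln within strains.

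**Figure D5:**
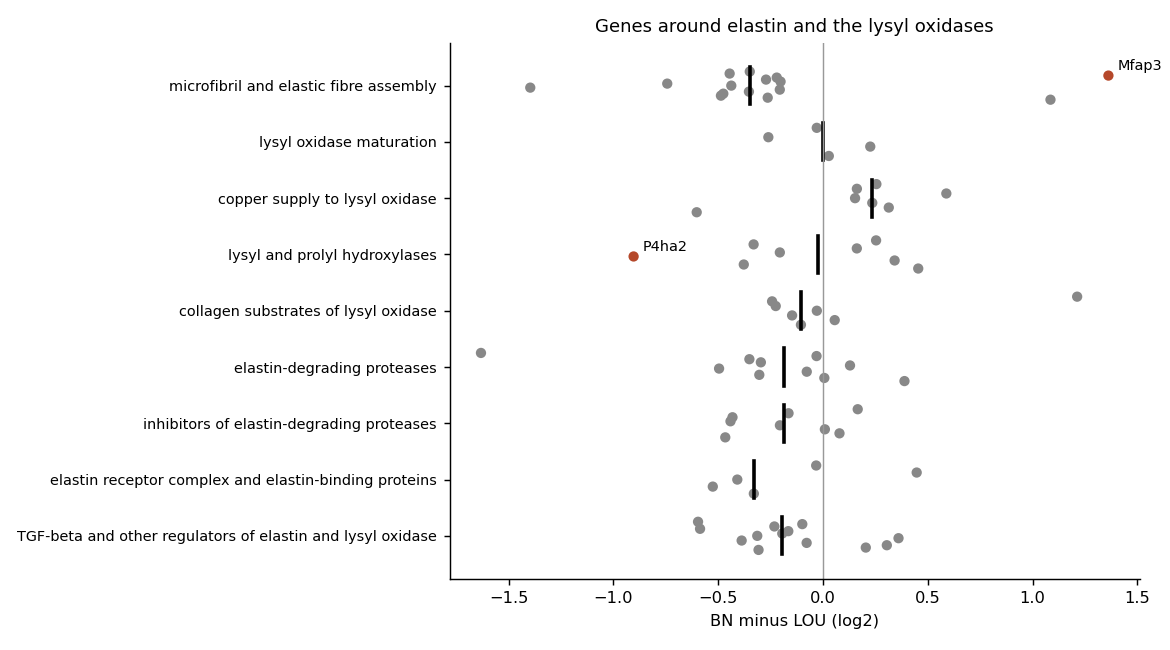
Log2 difference, BN minus LOU (horizontal), of each measured gene in 9 lists around elastin and the lysyl oxidases, with a black bar at each list's median and limma calls in red. Only Mfap3 (1.36) and P4ha2 (−0.90) passed, and the medians run from −0.35 for microfibril genes to 0.24 for copper supply.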

How the data were processed

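The authors deposited an intensity for each probe set and array. RMA is named in the submitters' processing notes, with no version, but the deposited intensities reach 22219.9, start at 0 and have nearly the same 2% trimmed mean on all arrays (200.05 to 200.06). They were therefore treated as linear and already scaled between arrays, although a log2 table had been planned for, and how background was handled is not given in the sources used here. Signals were put on the log2 scale (4 signals of 0 set to 0.1). All 15866 probe sets other than 57 controls were fitted with lmFit and eBayes (R 4.3.3, limma 3.58.1, strain as the only term, two-sided, Benjamini-Hochberg adjustment, threshold 0.05), with no filter on dim signals. Median signal per array ran from 97.4 to 105. Of these probe sets 12783 had 1 gene symbol, 312 several and 2771 none in the platform annotation, and 12748 symbols were updated through gene identifiers in the RefSeq table of GRCr8, 2 through accessions and 33 kept. A gene was read from its brightest probe set by mean log2 signal. Groups came from the strain in each array's title. The data gave no hint that replicate numbers pair the arrays: deviations of same-numbered arrays correlated between −0.06 and 0.17. Such correlations alone cannot show whether same-numbered arrays were handled together.

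Pairs within an array used exact permutation tests (smallest p 0.00794), and correlations used 100000 permutations within strains. The members and lists were chosen with earlier results of these data known. Named genes are all probe sets of the members, the called genes and 2 smallest p-values of each pathway list (of marker lists, the called genes), and the 5 genes most like each member. Fbln5, Fbn1 and the marker genes other than called ones were named after their values were seen. The fit was tested on simulated arrays. Alternatives were quantile normalization, median centring, a pseudocount of 16, array weights, an intensity trend in the variance, the replicate block, no probe sets from the dimmest 40%, averaging the probe sets of a gene, and each array left out. Python 3.11.15 made summaries and plots.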

Additional observations from a re-analysis of the deposited data

Results flagged for a closer look

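Of 12 groups of 5 arrays checked (4 probe sets and 2 within-array pairs in each strain), 1 held an array far from the others. By chance the check flags about 1 in 20 such groups, each taken alone, and the pairs reuse the values of the probe sets. The log2 signal of Loxl1 minus that of Eln was −3.60 on BN array 1, against −3.18 to −3.06 on BN arrays 2 to 5 and −3.33 to −2.63 on LOU arrays. BN array 1 had the lowest Loxl1 signal of all arrays, 885.5, beside an Eln signal of 10767.6.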

How the results depend on the processing

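Of 110 alternative values for the 4 probe sets and 2 pairs, 106 kept their direction and their side of the threshold. The Eln difference turned sign to 0.012 with median centring, to 0.013 without BN array 3 and LOU array 1 together, and without single arrays it ran from −0.076 to 0.000399. The brown adipocyte covariate, also chosen after seeing the data, moved Lox probe set 1 to −0.12, Lox probe set 2 to −0.36 and Loxl1 to −0.11. The direction of this shift was fixed in advance, as described above. Loxl1 minus Eln ran from −0.33 to −0.14 without single arrays and passed only without LOU array 1. Counts of called probe sets over the array moved more. From 39 higher and 86 lower in BN they became 78 and 175 without the dimmest 40% of probe sets (fewer probe sets tested), 81 and 161 with a variance trend, and 60 and 144 with a pseudocount of 16. They were 17 to 36 higher and 45 to 91 lower without single arrays. In settings chosen after seeing the data, 16 were higher and 59 lower without BN array 3 and LOU array 1, 88 and 128 with the adipocyte mean as a covariate, and 28 and 71 with the brown adipocyte mean. The cause of these shifts was not tested. The data gave no hint that replicate numbers pair the arrays (1 of 5 BN arrays and 0 of 5 LOU arrays correlated best with their own number). With the replicate block 10 were higher and 13 lower, and no call among the 4 probe sets changed. In that fit Mfap3 (adjusted p = 0.205), P4ha2 (0.122), Ogn (0.107) and Mbp (0.176) did not pass. All 4 probe sets lay at least 18.0-fold above background.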
